A study of Mus musculus with 16 samples.

Results

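Lrat, the gene of the enzyme that stores retinol as retinyl esters, was followed with 6 further genes of retinoid storage, transport and metabolism, Rbp4, Ttr, Rdh10, Rdh16, Aldh1a1 and Rarb, in the liver of mice that received vehicle, lean or obese gut microbiota. The members were found by their gene names on the array, where 11 of 56605 probes and 7 of 37074 gene names were theirs. All 7 had a probe that exceeded the background clearly on 5 or more of the 16 arrays, a filter that 20404 genes passed in all. Lrat was chosen by its measured values: by p it ranked 2 of 20404 genes in Conv + OM(HFD) vs. Conv + PBS. Ordered from the lowest mean difference it ranked 198. Its levels are therefore given as a description with no test, also in the other comparisons, since each of them shares a group of mice with that one. The other members were taken for their role in the pathway, with earlier results of these data known.

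All recipients were conventional male C57BL/6 mice, 10 weeks old, that were kept on normal chow (NC) over 4 weeks from 6 weeks of age and had never received antibiotics. They were gavaged once weekly for 2 weeks and fasted 6 h before the liver was taken. Conv + PBS mice (n = 6) received reduced PBS, the vehicle, although the sample labels call them control mice that were not transplanted. Conv + LM mice (n = 5) received the caecal content of lean NC-fed donors (LM, lean microbiota), and Conv + OM(HFD) mice (n = 5) that of donors made obese by a high-fat diet (OM, obese microbiota; HFD, high-fat diet). Donor contents were pooled by donor group before gavage, and recipients shared cages that the labels do not name. Mice of a transfer group thus shared pooled inocula and may have shared a cage. The p-values below measure the spread between mice, not between inocula or cages.

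Most vitamin A of the body is held in the liver as retinyl esters, in the lipid droplets of hepatic stellate cells. LRAT makes these esters from retinol, esterases release retinol from them, and retinol leaves the liver bound to RBP4, which travels in blood together with transthyretin, the product of Ttr. Retinol dehydrogenases oxidise retinol to retinal and retinal dehydrogenases oxidise retinal to retinoic acid, the ligand of the nuclear receptors RARα, RARβ and RARγ. The enzymes of the CYP26 family break retinoic acid down, and Lrat, Rarb and Cyp26a1 are known to be induced by retinoic acid.

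Each mouse had 1 array, on 2 slides that each held mice of all 3 groups. Levels are log2 intensities relative to the 75th percentile of the array, so a difference of 1 is a factor of 2, and the level of one gene cannot be set against that of another. Between 49.8% and 58.3% of probes were well above background on an array. The 10 hepatocyte markers checked (among them albumin) were measured in all mice, with list means of 8.92 to 9.38. Macrophage (Kupffer cell) and blood cell markers stood apart in Conv + PBS mouse 1, with list means of 3.39 and 2.71, and in Conv + OM(HFD) mouse 25, with 2.22 and 3.23, and adipocyte markers in Conv + LM mouse 15, with 1.40. No gene passed an adjusted p of 0.05 in any comparison by limma or by the methods' t-test. At an unadjusted p under 0.05, limma called 663 of 20404 genes (3.25%) in Conv + OM(HFD) vs. Conv + PBS, 792 (3.88%) in Conv + LM vs. Conv + PBS and 545 (2.67%) in Conv + OM(HFD) vs. Conv + LM, and the methods' t-test called 608, 746 and 586.

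Lrat had its lowest mean level in the mice with obese microbiota. Lrat was measured by 1 probe (chr3:82696805-82696864, mm9, minus strand), well above background on all 16 arrays. Its level was −0.74, −0.28, −0.76, −0.24, −0.45 and −0.13 in the 6 Conv + PBS mice, −0.94, −0.76, −0.60, −0.69 and −0.41 in the 5 Conv + LM mice, and −1.43, −1.09, −0.91, −0.85 and −1.05 in the 5 Conv + OM(HFD) mice. Every Conv + OM(HFD) mouse was below every Conv + PBS mouse, whereas the Conv + LM mice overlapped both groups. The group means were −0.43 ± 0.26 (SD, n = 6), −0.68 ± 0.20 (SD, n = 5) and −1.07 ± 0.23 (SD, n = 5).

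The mean difference in Lrat was −0.63 (SE 0.14) on the log2 scale for Conv + OM(HFD) against Conv + PBS, a change of −35.6%. Against Conv + PBS the Conv + LM mice differed by −0.25 (SE 0.14), and Conv + OM(HFD) differed from Conv + LM by −0.39 (SE 0.14). With normexp background correction these 3 differences were smaller, at −0.39, −0.15 and −0.24. The difference of Conv + OM(HFD) from Conv + PBS was −0.63 among the mice of slide 1 and −0.60 among those of slide 2. With lean microbiota it was −0.36 and −0.20. Without Conv + PBS mouse 1 the difference of Conv + OM(HFD) from Conv + PBS was −0.70, and without Conv + OM(HFD) mouse 25 it was −0.54. Over all genes, 0.23% did not overlap between Conv + OM(HFD) and Conv + PBS, 0.279% between Conv + LM and Conv + PBS and 0.436% between Conv + OM(HFD) and Conv + LM. Of the 7 members, Lrat alone did not overlap, in the comparison by which it was chosen, and 0 of 7 did so in the other comparisons.

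**Figure D1:**
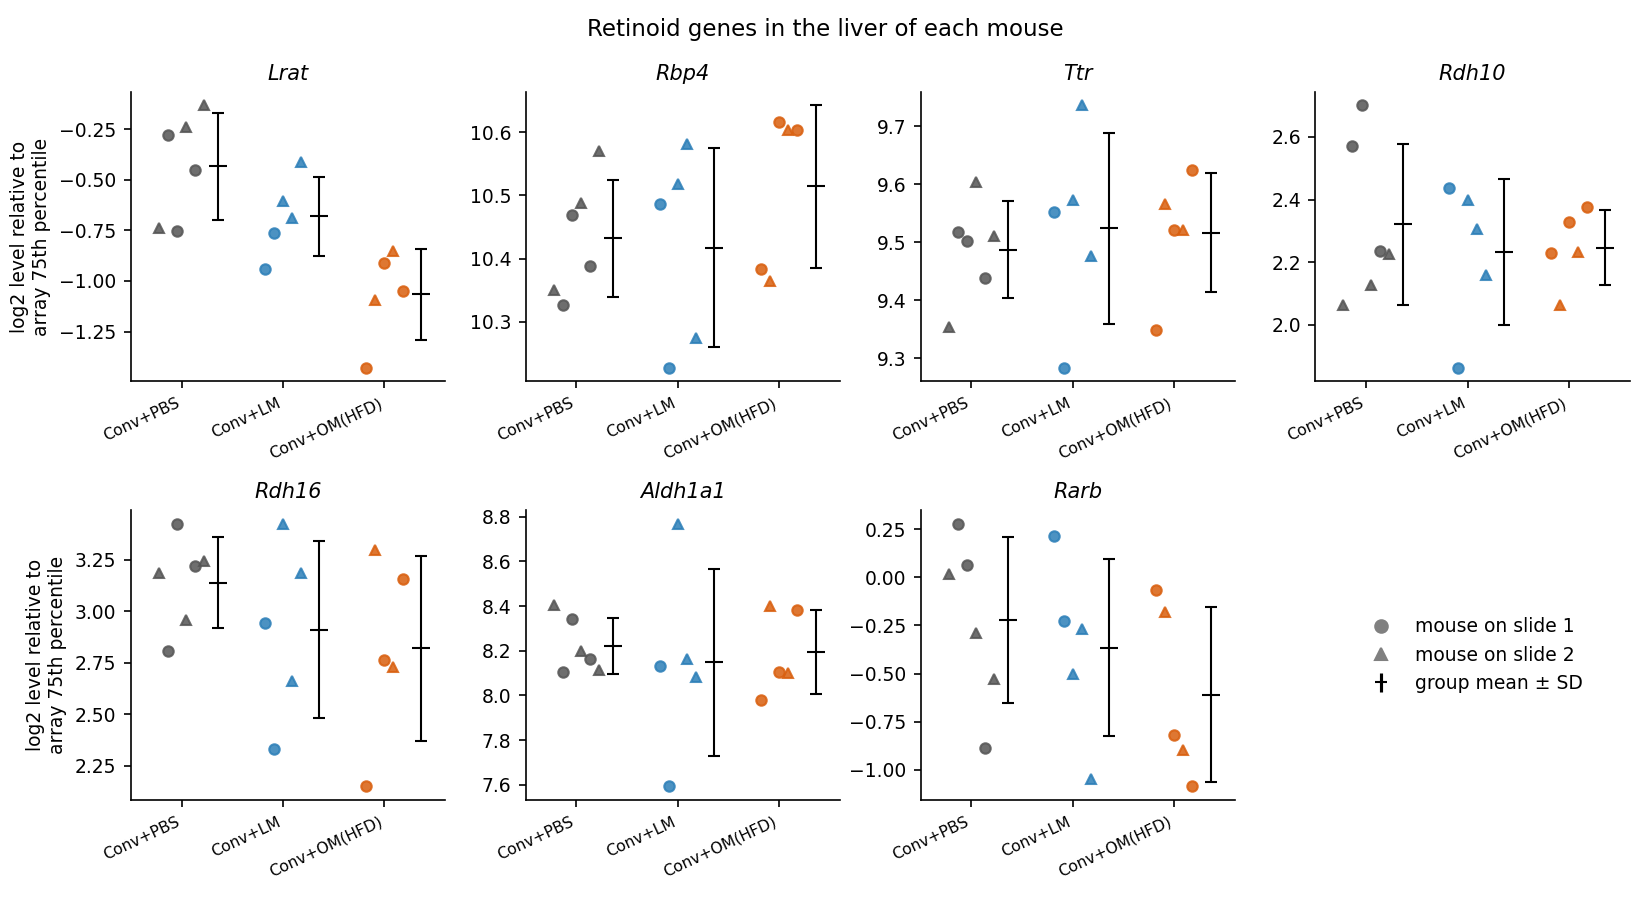
Level of each of the 7 genes in the liver of each mouse (y axis, log2 intensity relative to the 75th percentile of the array) by group (x axis). Circles and triangles are mice on slide 1 and slide 2, and the bars give the group mean ± SD. The Lrat levels of the 5 Conv + OM(HFD) mice, −1.43 to −0.85, lie below those of the 6 Conv + PBS mice, −0.76 to −0.13, while the groups overlap in the other 6 genes.

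In liver, Lrat is a gene of stellate cells, and in RNA of whole liver fewer cells of a type and less RNA per cell cannot be told apart. Of 18 other stellate cell markers, 15 had a lower and 3 a higher mean with obese microbiota relative to Conv + PBS, with a median difference of −0.18 against −0.002 over all genes tested, and 3 of 18 (16.7%) were lower at an unadjusted p under 0.05, a threshold that 3.25% of all genes passed. Without Conv + OM(HFD) mouse 25 the median was nearer to 0, at −0.054, with 14 of 18 lower, and without Conv + PBS mouse 1 it was −0.24. The 3 called with all mice were Bmp5 (a growth factor), Dcn (decorin, of the extracellular matrix) and Colec11 (a collectin), at −0.46, −0.26 and −0.27. Between Conv + LM and Conv + PBS, 9 markers were lower and 9 higher, with a median of −0.004, and none passed that threshold, beside 3.88% of all genes. That even split moved with single mice, to 13 lower and 5 higher (median −0.061) without Conv + PBS mouse 1 and to 7 lower and 11 higher (median 0.032) without Conv + LM mouse 15. In Conv + OM(HFD) vs. Conv + LM, 17 were lower and 1 higher, with a median of −0.22, and 2 of 18 (11.1%), Bmp5 and Colec11, were lower at that threshold, beside 2.67% of all genes. The summed signal of the 18 markers, as log2, ranged from 7.62 to 7.98 in Conv + PBS, from 7.59 to 8.04 in Conv + LM and from 7.64 to 7.89 in Conv + OM(HFD), so the groups overlapped, and all 18 markers passed the filter on dim probes. Des (desmin), a defining marker, was at −3.59, −3.49 and −3.05 in group means, and Reln (reelin) at 2.41, 2.35 and 2.06. With the marker mean as a covariate, chosen after the data were seen, the Lrat difference of Conv + OM(HFD) from Conv + PBS was −0.54. Markers of other cells also differed in mean in Conv + OM(HFD) against Conv + PBS: 6 of 8 sinusoidal endothelial markers were lower (median −0.17), 1 of them (12.5%), Clec4g, at an unadjusted p under 0.05, all 8 Kupffer cell markers were lower (median −0.14) and all 10 hepatocyte markers higher (median 0.11), with no Kupffer cell or hepatocyte marker at that threshold. Without Conv + PBS mouse 1 the Kupffer cell markers turned, with 7 of 8 higher (median 0.18), while without Conv + OM(HFD) mouse 25 all 8 were lower (median −0.34). Without Conv + PBS mouse 1, 9 of 10 hepatocyte markers were higher (median 0.061). The part of cell content in the Lrat difference was not tested. The 7 markers of activated stellate cells had a median difference of 0.022 in the same comparison (0.097 without Conv + PBS mouse 1 and 0.003 without Conv + OM(HFD) mouse 25), and 0 of 7 passed an unadjusted p of 0.05.

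The genes whose products carry retinol out of the liver had means close to those of Conv + PBS, and with obese microbiota the sign turned for Rbp4 with the authors' log2 values (−0.016) and for Ttr with quantile normalization (−0.011). For Rbp4, the plasma carrier of retinol (probe at chr19:38191129-38191188, mm9), levels were 10.35, 10.33, 10.47, 10.49, 10.39 and 10.57 in Conv + PBS, 10.49, 10.23, 10.52, 10.58 and 10.28 in Conv + LM and 10.38, 10.36, 10.62, 10.60 and 10.60 in Conv + OM(HFD). The 3 groups overlapped, and in Conv + OM(HFD) 3 mice were at 10.60 to 10.62 and 2 at 10.36 and 10.38. The group means of Rbp4 were 10.43 ± 0.093, 10.42 ± 0.16 and 10.51 ± 0.13 (SD, n = 6, 5 and 5), and they differed from Conv + PBS by 0.082 (SE 0.086) in Conv + OM(HFD) and by −0.015 (SE 0.086) in Conv + LM. The exact permutation test over mice gave a two-sided p of 0.225 for Conv + OM(HFD) against Conv + PBS, 0.842 for Conv + LM against Conv + PBS and 0.325 for Conv + OM(HFD) against Conv + LM.

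Ttr, whose product binds the RBP4 and retinol complex in blood, was at 9.35, 9.52, 9.50, 9.60, 9.44 and 9.51 in Conv + PBS, 9.55, 9.28, 9.57, 9.74 and 9.48 in Conv + LM and 9.35, 9.57, 9.52, 9.52 and 9.62 in Conv + OM(HFD). The ranges of Conv + PBS and Conv + OM(HFD) lay within that of Conv + LM. The group means of Ttr were 9.49 ± 0.084, 9.52 ± 0.16 and 9.52 ± 0.10 (SD, n = 6, 5 and 5), and they differed from Conv + PBS by 0.029 (SE 0.083) in Conv + OM(HFD) and by 0.037 (SE 0.083) in Conv + LM. The exact permutation test over mice gave a two-sided p of 0.606 for Conv + OM(HFD) against Conv + PBS, 0.641 for Conv + LM against Conv + PBS and 0.952 for Conv + OM(HFD) against Conv + LM. A further, dimmer Ttr probe, also well above background on all 16 arrays, gave −0.18 in Conv + OM(HFD) against Conv + PBS, so the 2 probes differed in sign.

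Among the enzymes that oxidise retinol to retinal, Rdh16 had a lower mean in both groups that received microbiota, but not beyond the spread between mice. Rdh16 (probe at chr10:127252579-127252638, mm9) was at 3.18, 2.80, 3.42, 2.96, 3.22 and 3.24 in Conv + PBS, 2.94, 2.33, 3.42, 2.66 and 3.18 in Conv + LM and 2.15, 3.30, 2.76, 2.73 and 3.16 in Conv + OM(HFD). The lowest mice were Conv + OM(HFD) mouse 25 and Conv + LM mouse 14, and each group had mice at 3.16 or above. The group means of Rdh16 were 3.14 ± 0.22, 2.91 ± 0.43 and 2.82 ± 0.45 (SD, n = 6, 5 and 5), and they differed from Conv + PBS by −0.32 (SE 0.21) in Conv + OM(HFD) and by −0.23 (SE 0.21) in Conv + LM. The difference of Conv + OM(HFD) from Conv + PBS was −0.46 on slide 1 and −0.11 on slide 2. The difference of Conv + LM from Conv + PBS was −0.51 on slide 1 and −0.039 on slide 2. The exact permutation test over mice gave a two-sided p of 0.158 for Conv + OM(HFD) against Conv + PBS, 0.275 for Conv + LM against Conv + PBS and 0.746 for Conv + OM(HFD) against Conv + LM. Without Conv + OM(HFD) mouse 25 the difference of Conv + OM(HFD) from Conv + PBS was −0.15, and without Conv + LM mouse 14 that of Conv + LM was −0.085.

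Rdh10, a retinol dehydrogenase of the retinoic acid pathway (probe at chr1:16122506-16122565, mm9), was at 2.06, 2.57, 2.70, 2.13, 2.24 and 2.22 in Conv + PBS, 2.44, 1.86, 2.40, 2.31 and 2.16 in Conv + LM and 2.23, 2.06, 2.33, 2.23 and 2.38 in Conv + OM(HFD). All Conv + OM(HFD) mice fell within the range of the Conv + PBS mice except mouse 26, which lay just under it. The group means of Rdh10 were 2.32 ± 0.26, 2.23 ± 0.23 and 2.25 ± 0.12 (SD, n = 6, 5 and 5), and they differed from Conv + PBS by −0.075 (SE 0.13) in Conv + OM(HFD) and by −0.088 (SE 0.13) in Conv + LM. The exact permutation test over mice gave a two-sided p of 0.552 for Conv + OM(HFD) against Conv + PBS, 0.567 for Conv + LM against Conv + PBS and 0.936 for Conv + OM(HFD) against Conv + LM.

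Aldh1a1, which oxidises retinal to retinoic acid (probe at chr19:20717764-20717823, mm9), was at 8.40, 8.10, 8.34, 8.20, 8.16 and 8.11 in Conv + PBS, 8.13, 7.59, 8.77, 8.16 and 8.08 in Conv + LM and 7.98, 8.40, 8.11, 8.10 and 8.38 in Conv + OM(HFD). Its spread was widest in Conv + LM, where mouse 14 was the lowest and mouse 15 the highest of all 16 mice. The group means of Aldh1a1 were 8.22 ± 0.12, 8.15 ± 0.42 and 8.20 ± 0.19 (SD, n = 6, 5 and 5), and they differed from Conv + PBS by −0.027 (SE 0.16) in Conv + OM(HFD) and by −0.074 (SE 0.16) in Conv + LM. The exact permutation test over mice gave a two-sided p of 0.762 for Conv + OM(HFD) against Conv + PBS, 0.662 for Conv + LM against Conv + PBS and 0.849 for Conv + OM(HFD) against Conv + LM. Conv + LM mouse 14 was also the lowest Conv + LM mouse in Rbp4, Ttr, Rdh10 and Rdh16.

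Rarb, the gene of the retinoic acid receptor RARβ, had a lower mean with obese microbiota that was not larger than the spread between mice. The brightest of its 4 probes (chr14:17263511-17263570, mm9) was at 0.018, 0.28, 0.064, −0.29, −0.89 and −0.53 in Conv + PBS, 0.21, −0.22, −0.50, −0.27 and −1.05 in Conv + LM and −0.067, −0.18, −0.82, −0.90 and −1.09 in Conv + OM(HFD). The ranges of the 3 groups overlapped over most of their width, and 2 of the 5 Conv + OM(HFD) mice lay below every Conv + PBS mouse. The group means of Rarb were −0.22 ± 0.43, −0.37 ± 0.46 and −0.61 ± 0.46 (SD, n = 6, 5 and 5), and they differed from Conv + PBS by −0.39 (SE 0.25) in Conv + OM(HFD) and by −0.14 (SE 0.25) in Conv + LM. The difference of Conv + OM(HFD) from Conv + PBS was −0.48 on slide 1 and −0.27 on slide 2. With normexp background correction it was −0.23, and with array weights −0.50. The exact permutation test over mice gave a two-sided p of 0.177 for Conv + OM(HFD) against Conv + PBS, 0.615 for Conv + LM against Conv + PBS and 0.413 for Conv + OM(HFD) against Conv + LM. A further probe that was well above background on all 16 arrays gave −0.28 in Conv + OM(HFD) against Conv + PBS, and the other 2 were well above background on 3 and 1 arrays and are not read here.

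Of the 6 members tested, 0 passed an unadjusted p of 0.05 by limma in any of the 3 comparisons, against 3.25%, 3.88% and 2.67% of all genes. Their adjusted p was 1 throughout Conv + OM(HFD) vs. Conv + PBS. With obese microbiota 4 of the 6 had a lower mean, with a median difference from Conv + PBS of −0.051, and with lean microbiota 5, with a median of −0.081. The Conv + PBS mice are shared by these comparisons. Between Conv + OM(HFD) and Conv + LM, 3 were lower and 3 higher.

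**Figure D2:**
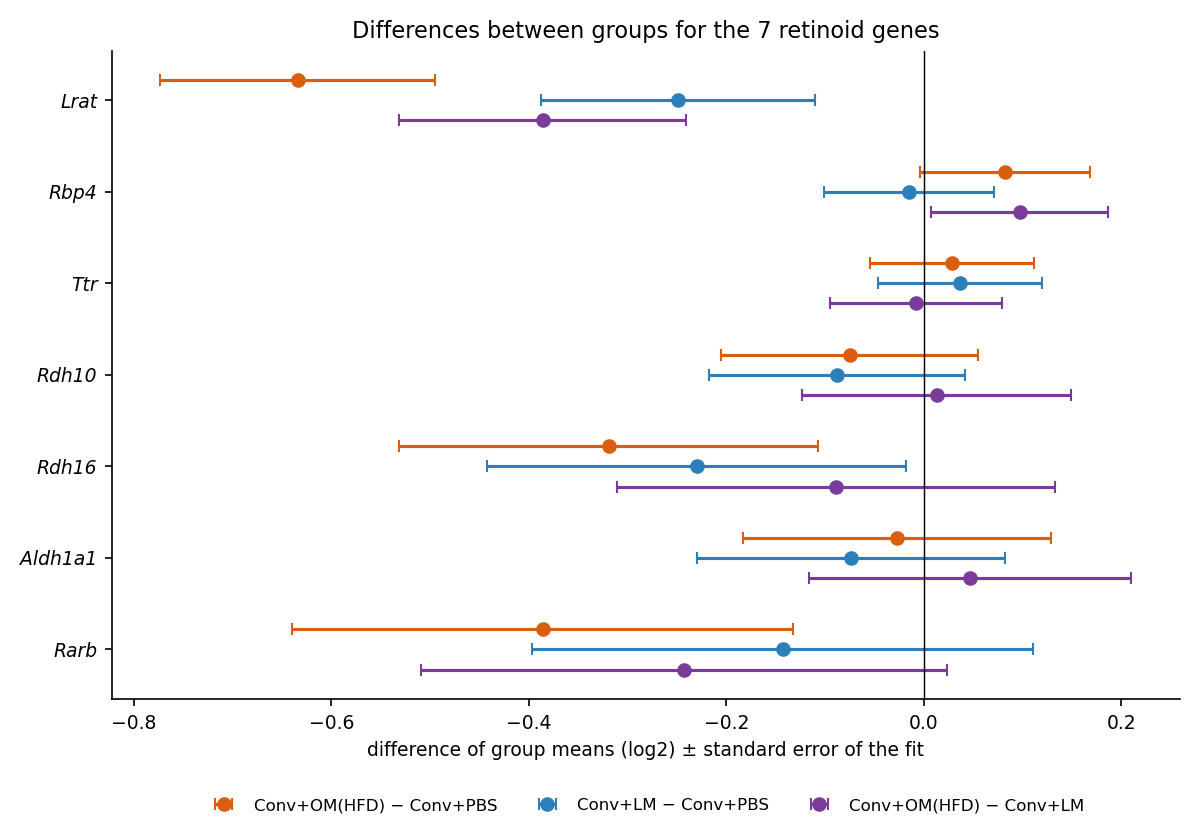
Differences between group means for the 7 genes (x axis, log2) with the standard error of the fit. Orange points compare Conv + OM(HFD) and blue points Conv + LM with Conv + PBS, and purple points compare Conv + OM(HFD) with Conv + LM. Lrat, chosen by its values in the first comparison, lies at −0.63 there, and the other genes lie between −0.39 and 0.082.

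The wider retinoid pathway was described with a list of 70 genes grouped by role, of which 69 were on the array and 61 passed the filter, Lrat among them. In Conv + OM(HFD) against Conv + PBS, 36 of the other 60 genes had a lower and 24 a higher mean, with a median difference of −0.027 against −0.002 over all genes. At an unadjusted p under 0.05 stood 2 of 60 (3.33%), near the 3.25% of all genes. In Conv + LM against Conv + PBS, 32 were lower and 28 higher (median −0.015, all genes −0.011), and 2 of 60 passed, beside 3.88% of all genes. In Conv + OM(HFD) against Conv + LM, 36 were lower and 24 higher (median −0.026, all genes 0.003), and 1 of 60 passed (1.67%), beside 2.67% of all genes.

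The genes of retinyl ester storage and release were read next. Dgat1, which can also esterify retinol, had means of 1.36 ± 0.12 in Conv + PBS, 1.40 ± 0.18 in Conv + LM and 1.31 ± 0.15 in Conv + OM(HFD) (SD, n = 6, 5 and 5). Its difference of Conv + OM(HFD) from Conv + PBS was −0.043 (SE 0.097), with an exact permutation p of 0.602. Of 11 genes of retinyl ester hydrolysis, 5 had a lower and 6 a higher mean relative to Conv + PBS (median 0.028), and 0 passed an unadjusted limma p of 0.05. Since 3.25% of all genes passed, a count of 0 in a list this short says nothing particular about these genes. Pnpla3, a lipase of lipid droplets that releases retinol in stellate cells, ranged over −3.94 to −2.59 in Conv + PBS, −5.19 to −2.66 in Conv + LM and −4.62 to −3.26 in Conv + OM(HFD). Its mean difference between Conv + OM(HFD) and Conv + PBS was −0.71 (SE 0.42), with an exact permutation p of 0.0736. The probe was well above background on 12 of 16 arrays, and a dimmer one on 7 gave −0.78. For Conv + LM against Conv + PBS these probes gave −0.36 and −1.34. For Conv + OM(HFD) against Conv + LM they differed in sign, at −0.35 and 0.56. By the brighter probe, Conv + OM(HFD) differed from Conv + PBS by −1.02 on slide 1 and −0.40 on slide 2.

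Lipa, the lysosomal acid lipase, was lower with lean microbiota at an unadjusted p only. Its level was 4.06, 3.98, 4.20, 4.23, 4.12 and 4.16 in Conv + PBS, 3.95, 3.82, 4.12, 3.97 and 3.83 in Conv + LM and 4.06, 4.25, 3.98, 4.20 and 4.28 in Conv + OM(HFD). In Conv + LM, 4 of 5 mice lay below every Conv + PBS mouse, and the fifth, mouse 15, was within their range. Conv + LM differed from Conv + PBS by −0.19 (SE 0.081) and Conv + OM(HFD) from Conv + LM by 0.22 (SE 0.085), with exact permutation p of 0.0195 and 0.0397 and limma adjusted p of 0.998 and 0.999. Within slides, the difference of Conv + OM(HFD) from Conv + LM was 0.22 and 0.25. Against Conv + PBS, Lipa in Conv + LM no longer passed an unadjusted p of 0.05 without Conv + PBS mouse 3, 4 or 6 or Conv + LM mouse 14 or 17 (−0.18 to −0.16), and the difference from Conv + OM(HFD) did not without Conv + LM mouse 14 or 17 or Conv + OM(HFD) mouse 26 or 30 (0.18 to 0.19).

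Of 7 genes of retinoid binding and transport, Rbp4 and Ttr among them, 2 had a lower and 5 a higher mean with obese microbiota, and 0 passed an unadjusted p of 0.05. With lean microbiota 3 had a lower and 4 a higher mean, and 0 passed. Beside 3.25% and 3.88% of all genes, counts of 0 in a list this short say nothing particular about these genes.

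The enzymes between retinol and retinoic acid were read as 3 lists. Of 10 genes of retinol oxidation, 8 had a lower mean with obese microbiota (median −0.069) and 6 with lean microbiota (median −0.096). Of 6 genes of retinal reduction, 5 were lower in Conv + OM(HFD) and 3 in Conv + LM. Of 6 genes of retinal oxidation to retinoic acid, 3 were lower in each. None of these 22 genes passed an unadjusted p of 0.05 by limma in any of the 3 comparisons, where 3.25%, 3.88% and 2.67% of all genes did, so that count too is near the background. The 4 genes of carotenoid uptake and cleavage gave 0 at that threshold too.

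**Figure D3:**
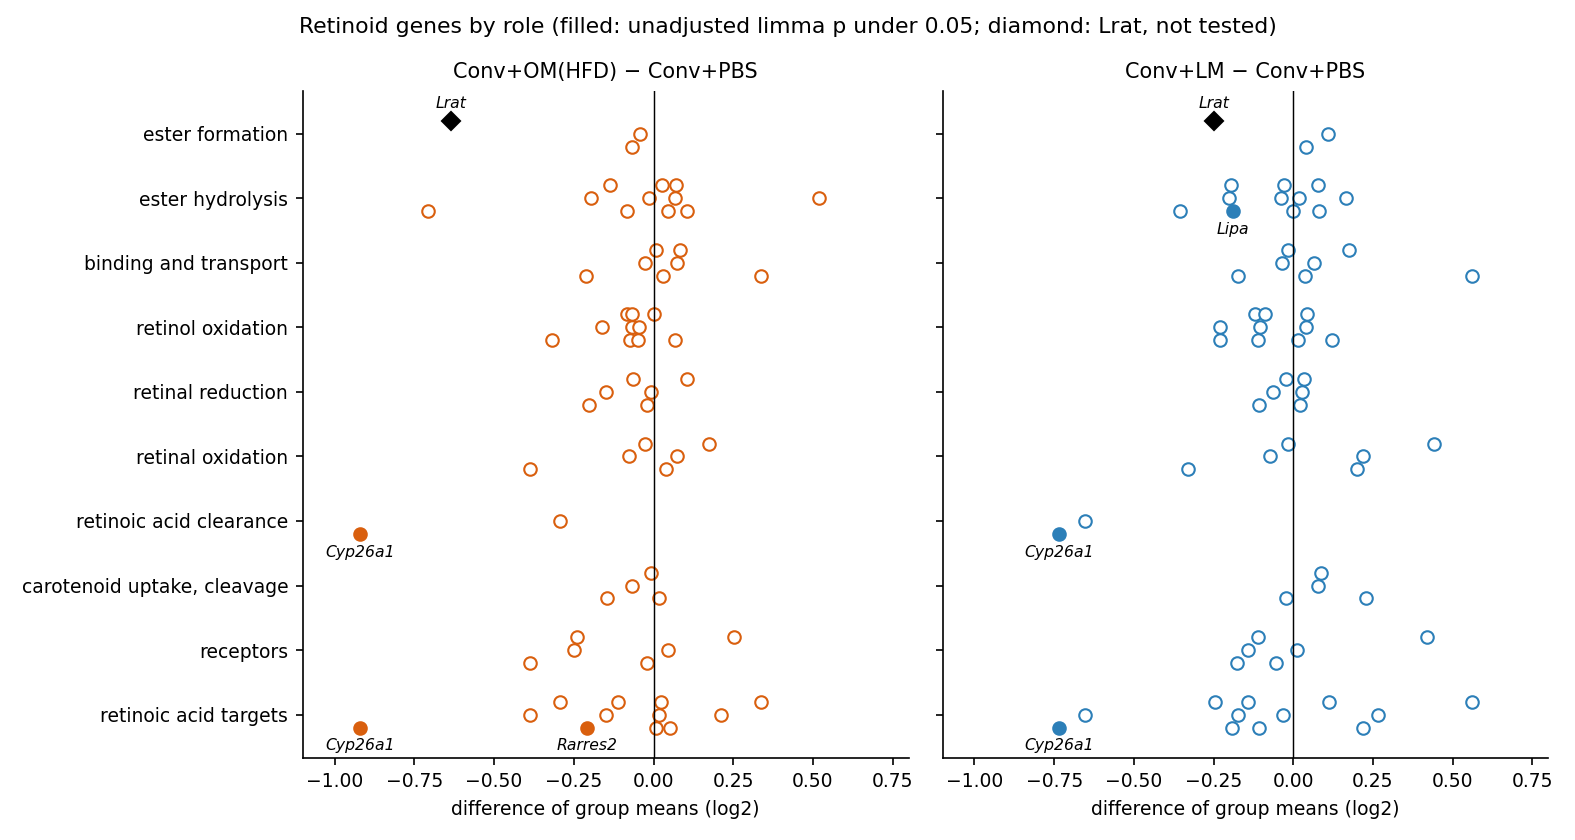
Differences of Conv + OM(HFD) (left) and Conv + LM (right) from Conv + PBS (x axis, log2) for the retinoid genes that passed the filter, in rows by role. Filled circles passed an unadjusted limma p of 0.05, open circles did not, and the diamond is Lrat, which was not tested. Both panels use the same Conv + PBS mice, a gene with several roles appears in each, and most genes lie near 0, with Cyp26a1 at −0.92 and −0.73.

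Cyp26a1, which degrades retinoic acid and is induced by it, had the lowest mean difference of the 60 genes with obese microbiota. Its level was −0.22, −1.28, −0.60, −0.41, −1.30 and 0.25 in Conv + PBS, −0.70, −1.51, −0.56, −1.89 and −1.96 in Conv + LM and −1.35, −1.42, −1.63, −1.62 and −1.55 in Conv + OM(HFD). The Conv + OM(HFD) mice lay close together and below every Conv + PBS mouse, while the Conv + LM mice spread from the range of Conv + PBS to below that of Conv + OM(HFD). The means were −0.59 ± 0.61 (SD, n = 6), −1.32 ± 0.66 (SD, n = 5) and −1.51 ± 0.12 (SD, n = 5). Conv + OM(HFD) differed from Conv + PBS by −0.92 (SE 0.30), a change of −47.2%, with an exact permutation p of 0.0130 and a limma adjusted p of 1. Conv + LM differed from Conv + PBS by −0.73 (SE 0.30), with an exact permutation p of 0.0952, and Conv + OM(HFD) from Conv + LM by −0.19 (SE 0.31), with an exact permutation p of 0.508. Cyp26a1 was the 1 gene of these 60 (1.67%) whose Conv + OM(HFD) and Conv + PBS mice did not overlap, as 0.23% of all genes did not. The difference of Conv + OM(HFD) from Conv + PBS was −0.85 without Conv + PBS mouse 1 and −0.96 without Conv + OM(HFD) mouse 25. With normexp background correction the differences from Conv + PBS were smaller, at −0.49 for Conv + OM(HFD) and −0.44 for Conv + LM. For Conv + LM, the unadjusted limma call against Conv + PBS was lost without Conv + PBS mouse 1 or 6 or Conv + LM mouse 14, 16 or 17 (−0.69 to −0.56).

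The mean Cyp26a1 level of the Conv + PBS mice was lower on slide 1. On slide 1 their mean was −1.06 and on slide 2 −0.13, whereas Conv + OM(HFD) stood at −1.51 and −1.52. Hence the difference of Conv + OM(HFD) from Conv + PBS was −0.45 on slide 1 and −1.39 on slide 2. For Conv + LM it was −0.049 and −1.34, so with lean microbiota it was seen mainly on slide 2. With slide as a block the difference of Conv + OM(HFD) from Conv + PBS was −0.90.

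Among the receptors, 4 of 6 genes had a lower mean with obese microbiota (median −0.13) and 4 of 6 with lean microbiota (median −0.083). Rara, the gene of RARα, was at 3.86, 3.76, 3.43, 3.56, 3.12 and 3.09 in Conv + PBS, 3.83, 3.47, 3.37, 3.40 and 2.72 in Conv + LM and 3.50, 3.18, 3.21, 3.10 and 3.16 in Conv + OM(HFD). Its mean in Conv + OM(HFD) differed from Conv + PBS by −0.24 (SE 0.18), with an exact permutation p of 0.165, and a dimmer probe gave −0.02. None of the 6 receptor genes passed an unadjusted p of 0.05 in any of the 3 comparisons, where 3.25%, 3.88% and 2.67% of all genes did.

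Of 12 genes known to be induced by retinoic acid, Lrat left out, 6 had a lower and 6 a higher mean with obese microbiota (median −0.052), and 2 (16.7%) were lower at an unadjusted p under 0.05, beside 3.25% of all genes called in either direction. These were Cyp26a1 and Rarres2, which encodes the secreted protein chemerin. Rarres2 was at 8.17, 8.08, 8.24, 8.24, 8.10 and 8.01 in Conv + PBS, 7.98, 7.95, 7.98, 7.81 and 8.02 in Conv + LM and 7.70, 8.10, 7.76, 7.90 and 8.21 in Conv + OM(HFD). Conv + OM(HFD) mice 26 and 30 lay within the range of Conv + PBS, and the Conv + LM mice lay below it except mouse 17. The mean difference in Rarres2 was −0.21 (SE 0.093) for Conv + OM(HFD) and −0.19 (SE 0.093) for Conv + LM against the same Conv + PBS mice, with exact permutation p of 0.0693 and 0.00649 and limma adjusted p of 1 and 0.998. In Conv + LM against Conv + PBS, 8 of the 12 were lower and 4 higher, and Cyp26a1 was the 1 (8.33%) below an unadjusted limma p of 0.05 (limma p of 0.0265, and 0.0567 for Rarres2, which by the exact permutation test had the lower p of both), beside 3.88% of all genes. The Rarres2 call with obese microbiota was lost without any 1 of Conv + PBS mice 1, 3 and 4 or Conv + OM(HFD) mice 25, 28 and 29, at −0.20 to −0.15.

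**Figure D4:**
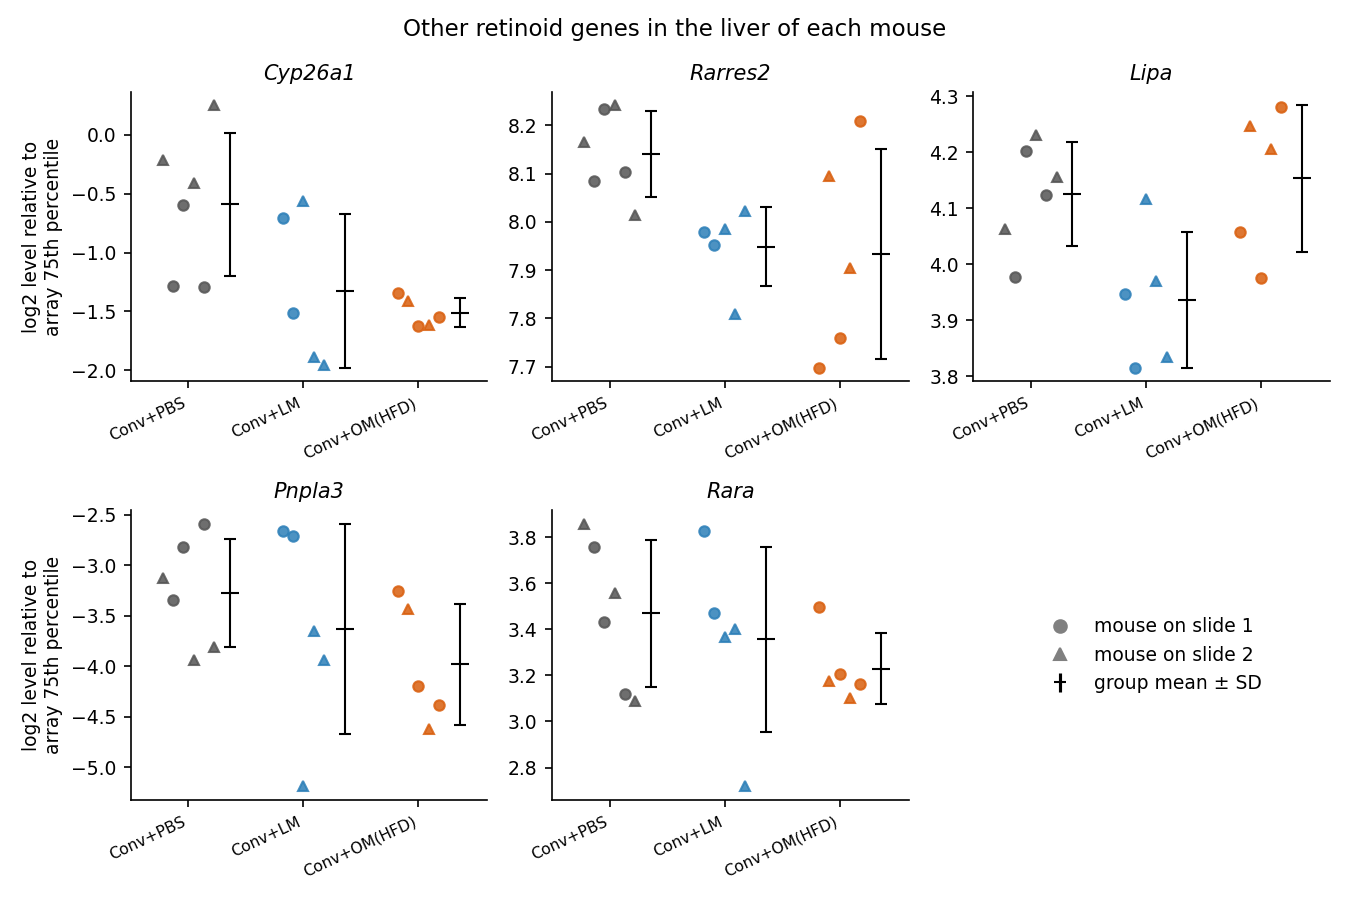
Levels of Cyp26a1, Rarres2, Lipa, Pnpla3 and Rara in the liver of each mouse (y axis, log2 intensity relative to the 75th percentile of the array) by group (x axis). Circles and triangles are mice on slide 1 and slide 2, and the bars give the group mean ± SD. The Cyp26a1 levels of Conv + OM(HFD) lie at −1.63 to −1.35, below the −1.30 to 0.25 of Conv + PBS, and in Rara Conv + OM(HFD) mouse 25 stands above its group at 3.50.

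Retinoic acid receptors bind pairs of half-sites, and the pair spaced by 5 bases (DR5) is the classical retinoic acid response element. The promoters of Lrat, Cyp26a1 and Rarb are shown over the 120 bases before the start, as the storage enzyme, the clearance enzyme and the receptor known to be induced by retinoic acid (RefSeq, GRCm38.p6, 5′ to 3′ on the strand of the gene). Capitals mark a DR5, that is, a half-site (AGGTCA or AGTTCA, or else GGGTCA or GGTTCA) followed by 5 bases and again by any of these half-sites, on either strand:
Lrat, chr3:82903975-82904094, minus strand: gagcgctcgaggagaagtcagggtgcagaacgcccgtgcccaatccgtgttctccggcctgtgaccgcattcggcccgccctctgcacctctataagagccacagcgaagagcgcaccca
Cyp26a1, chr19:37697688-37697807, plus strand: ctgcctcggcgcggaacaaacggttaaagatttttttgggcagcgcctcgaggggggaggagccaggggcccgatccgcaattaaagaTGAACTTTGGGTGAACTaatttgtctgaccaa
Rarb, chr14:16575477-16575596, minus strand: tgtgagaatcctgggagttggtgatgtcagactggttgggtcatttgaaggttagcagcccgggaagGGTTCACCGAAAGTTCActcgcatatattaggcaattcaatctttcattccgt

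Windows of 300 bases, 250 before to 50 after a start, were searched in the same way for all genes. A DR5 was in 32 of 32851 windows (0.0974%). Of the 70 listed retinoid genes 54 had a window, Rarres2 not among them, and Cyp26a1 and Rarb each held 1 DR5. Counted from the start, it lay at −32 to −16 in Cyp26a1, on the opposite strand, and at −53 to −37 in Rarb, on the strand of the gene. The Lrat window held no match to these letters and 0 single half-sites. Pairs spaced by 1 base (DR1) and by 2 bases (DR2) were in 0.222% and 0.268% of windows and in none of these 3 genes. A match is a run of letters and was not tested as a binding site.

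Within groups, the Lrat level of a mouse was set against 8 other measures, as deviations from the group mean over 16 mice. The 8 were the 6 other members, the mean of the 18 stellate cell markers and Arntl, the clock gene also called Bmal1. Rarb deviated against Lrat, with Pearson's r = −0.62 and Spearman's rho = −0.68. Arntl deviated with Lrat, with r = 0.66 and rho = 0.64. Since Lrat was chosen by its values in these mice, all 8 relations are given as a description with no p.

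For the values by slide, deviations were taken anew from the mean of the group's mice on that slide, in some groups only 2 mice. For Rarb, r was −0.45 among the 8 mice of slide 1 and −0.82 among the 8 of slide 2, and for Arntl 0.31 and 0.98. Conv + OM(HFD) mouse 25 and Conv + PBS mouse 6 were farthest from the median of Lrat over all mice. That was by level, which holds the group difference, and not by deviation from the group mean. Without them r was −0.51 for Rarb and 0.48 for Arntl, so these relations rest in part on those mice. Arntl levels covered −2.33 to 0.20 in Conv + PBS, −2.73 to 0.32 in Conv + LM and −2.28 to 0.74 in Conv + OM(HFD), so mice of each group differed widely in a gene that cycles over the day. With the Arntl level as a covariate, chosen after the data were seen, the Lrat difference of Conv + OM(HFD) from Conv + PBS was −0.68. The mean of the stellate cell markers gave r = 0.44 and rho = 0.26, with r = 0.71 on slide 1 and 0.73 on slide 2. For Rbp4, Ttr, Rdh16, Rdh10 and Aldh1a1, r was 0.27, 0.37, 0.18, −0.12 and −0.04.

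**Figure D5:**
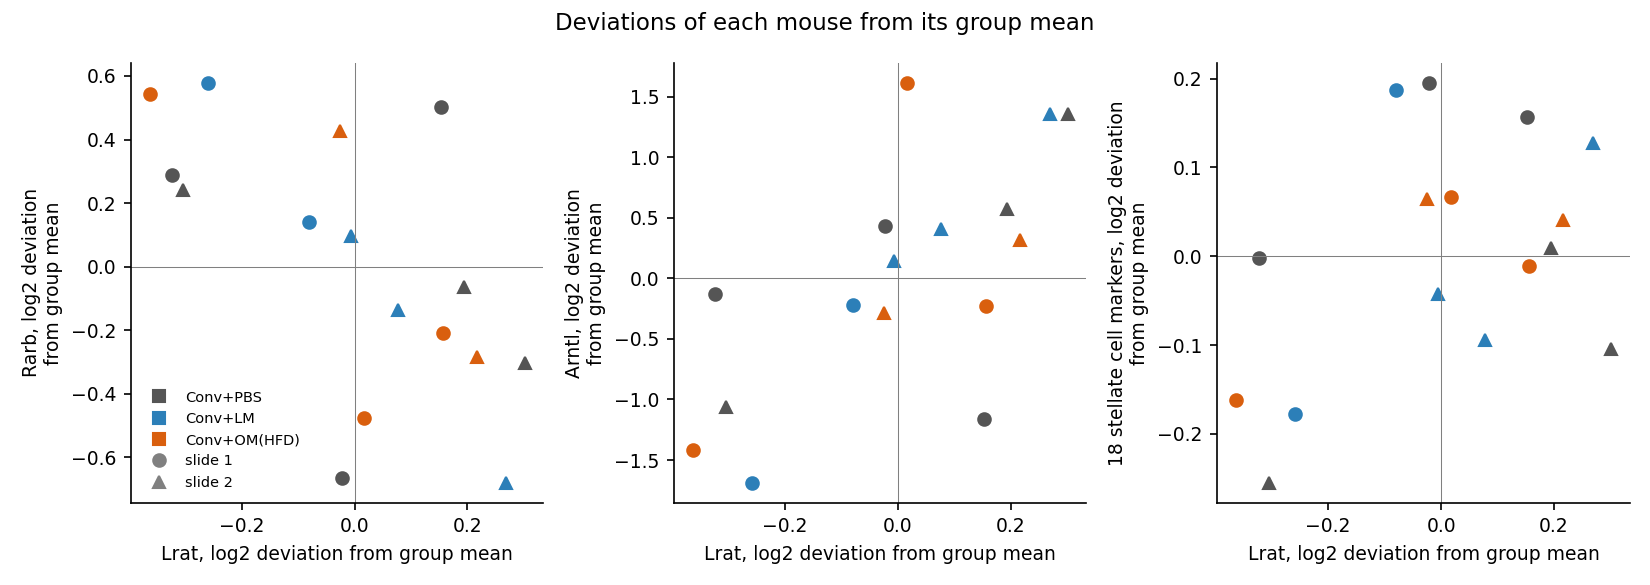
Deviation of each of the 16 mice from its group mean in Lrat (x axis, log2) against its deviation in Rarb, Arntl and the mean of 18 stellate cell markers (y axes, log2). Colours give the group, and circles and triangles the slide. Pearson's r is −0.62, 0.66 and 0.44 over all mice.

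Over the 16 mice without regard to group, the genes whose levels ran most like Lrat among the 20404 were Colec10 (r = 0.83), Ube3c (0.81), Ptgr2 (0.80), Cetn4 (0.80) and Ntn1 (0.79), and the most opposed were Agtr1a (r = −0.86) and A930028N01Rik (r = −0.82). The other members stood at r = 0.38 for Rdh16, 0.15 for Ttr, 0.04 for Rdh10, 0.01 for Aldh1a1 and −0.07 for both Rbp4 and Rarb. These correlations share the group differences and the arrays and are given with no p.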

How the data were processed

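Total RNA of 16 livers was hybridised by the authors to 16 Agilent mouse arrays in 1 colour, and signals were read with Agilent Feature Extraction 10.10.1.1 (submitters' processing notes). The deposited intensity values are linear, corrected within each array for background and spatial trends, and not normalized between arrays. A further deposited file of log2 values fitted quantile-normalized median spot signals. Columns of the mean and median intensity and local background, also deposited, served the alternatives.

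Without control spots and 1785 outlier spots, replicate spots were averaged per probe, put on the log2 scale and set relative to the array's 75th percentile. The brightest probe stood for a gene. Group differences were tested with limma 3.58.1 (lmFit, eBayes; R 4.3.3, data.table package, version 1.17.8), all 3 groups in 1 fit with Benjamini-Hochberg adjustment over 20404 genes, and by exact two-sided permutation tests over mice (smallest p 0.00216 for 5 against 6 mice and 0.00794 for 5 against 5). Relations with Lrat, planned with permutation tests, are given with no p since Lrat was chosen by its values. Scripts were tested on simulated data. Plots and sequences used Python 3.11.15 and matplotlib 3.10.9. The number of arrays limits the precision.

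The members and gene lists were chosen with earlier results of these data known. Genes named are the 7 members, listed pathway genes at an unadjusted p under 0.05 in any comparison, Cyp26a1, Dgat1, Pnpla3 and Rara in any case (1 further gene of that rule is not reported here), and the 5 genes with the highest and 2 with the lowest r to Lrat. Other genes were named after their values were seen. Positions of probes come from the array's annotation (mm9), and 10 of 11 member probes matched the same symbol in RefSeq. Alternatives covered background correction, normalization, filters, probes, slide, array weights, the mice in the fit, the methods' t-test (unpaired Student's t-test) and each mouse left out.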

Additional observations from a re-analysis of the deposited data

Results flagged for a closer look

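In 1 of 42 groups of mice examined (13 genes and the mean of the stellate cell markers, each in 3 groups), 1 mouse lay far from the others by Dixon's test, where chance flags about 5% of groups. Rara was at 3.50 in Conv + OM(HFD) mouse 25 while the other 4 lay between 3.10 and 3.21. Mouse 25 was also the lowest mouse in Lrat, at −1.43, and without it the Lrat difference of Conv + OM(HFD) from Conv + PBS was −0.54.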

How the results depend on the processing

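No paired analysis was possible because no mouse number occurs in more than 1 group. Across the 28 alternatives, 0 of the 6 other members passed an unadjusted p of 0.05 in any comparison, and Lrat kept its sign in all 3 comparisons. Lrat in Conv + OM(HFD) vs. Conv + PBS was −0.39 with normexp background correction and between −0.70 and −0.54 with each mouse left out. Cyp26a1 in that comparison was lower at an unadjusted limma p under 0.05 in all 28 alternatives, between −1.26 and −0.49, while Rarres2 lost that in 10 of 28, and Cyp26a1 and Lipa in Conv + LM vs. Conv + PBS each in 7 of 28 and Lipa in Conv + OM(HFD) vs. Conv + LM in 5 of 28.

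Of the 60 pathway genes, the number at an unadjusted p under 0.05 in Conv + OM(HFD) vs. Conv + PBS was 1 without a filter, with the methods' t-test and with the stellate marker covariate (added after the data were seen), and 1 to 3 with each mouse left out (1 without Conv + PBS mouse 4, Conv + OM(HFD) mouse 28 or mouse 29). Over all genes the counts in the first 3 of these settings were 906 of 37074, 608 and 618, against 663 in the main fit. In Conv + LM vs. Conv + PBS the number of pathway genes was 1 without a filter, 4 with the Arntl covariate (also added) and 0 to 4 with each mouse left out (0 without Conv + LM mouse 17, 1 without Conv + PBS mouse 6 and 4 without Conv + OM(HFD) mouse 30). Over all genes the count rose to 1193 with the Arntl covariate, against 792 in the main fit. It was 891 without Conv + LM mouse 17, 757 without Conv + PBS mouse 6 and 772 without Conv + OM(HFD) mouse 30. In Conv + OM(HFD) vs. Conv + LM the number of pathway genes was 2 with normexp, with slide as a block, with array weights and with the Arntl covariate, and 0 to 2 with each mouse left out (0 without Conv + OM(HFD) mouse 30, and 2 without Conv + LM mouse 17 and without Conv + OM(HFD) mice 25 and 28). Over all genes the count was 552 with normexp, 862 with slide as a block, 608 with array weights and 632 with the Arntl covariate. In the main fit it was 545.

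Differences of members near 0 changed sign under some alternatives. In Conv + OM(HFD) vs. Conv + PBS these were Ttr −0.011 with quantile normalization, Rbp4 −0.016 with the authors' log2 values, Ttr −0.078 with the mean of all probes, and with each mouse left out Aldh1a1 from −0.079 to 0.026, Rdh10 from −0.13 to 0.002. In Conv + LM vs. Conv + PBS these were Rbp4 0.032 with quantile normalization, Rbp4 0.023 with array weights, and with each mouse left out Rbp4 from −0.056 to 0.033, Aldh1a1 from −0.23 to 0.064, Rarb from −0.29 to 0.027, Rdh10 from −0.14 to 0.005, Ttr from −0.016 to 0.097. In Conv + OM(HFD) vs. Conv + LM these were Rdh10 −0.041 and Ttr 0.016 with normexp, Rbp4 −0.027 and Aldh1a1 −0.001 with quantile normalization, Rbp4 −0.012 with the authors' log2 values, Rdh10 −0.016 and Ttr 0.006 with slide as a block, Aldh1a1 −0.009 and Rdh10 −0.027 with array weights, Aldh1a1 −0.063 and Rdh10 −0.011 with the stellate marker covariate, and with each mouse left out Aldh1a1 from −0.092 to 0.20, Rdh16 from −0.23 to 0.078, Rdh10 from −0.079 to 0.064, Ttr from −0.068 to 0.045. Conv + LM mouse 14 or 17 decided the sign in Conv + LM vs. Conv + PBS for all of these except Ttr, where it was mouse 16, and for Rbp4 also Conv + PBS mouse 6.

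Of the relations with Lrat, Rbp4 changed sign without the 2 mice farthest from the median of Lrat (r = −0.021) and with the authors' log2 values (−0.19), Rdh16 without those mice (−0.20) and on slide 2 (−0.080), Rdh10 on slide 2 (0.32) and Ttr with the authors' values (−0.11). For Arntl, r was 0.72 with the authors' values. In each case the cause was not tested. Signal over background limits Pnpla3 and the dim Rarb probes.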

Other observations

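Markers of the other liver cells were read as lists. In Conv + LM against Conv + PBS, 7 of 10 hepatocyte markers were lower (median −0.012) and so were 6 of 8 markers of sinusoidal endothelial cells (median −0.073), medians that were −0.046 and −0.036 without Conv + PBS mouse 1 and −0.007 (5 of 10 lower) and −0.12 without Conv + LM mouse 15. In either list 0 were called at an unadjusted p under 0.05 by limma, beside 3.88% of all genes. Clec4g, a lectin of sinusoidal endothelial cells, differed from Conv + PBS by −0.48 with obese and −0.36 with lean microbiota. All 8 Kupffer cell markers were lower in mean in Conv + LM (median −0.48), and 7 of 8 without Conv + PBS mouse 1 (median −0.18). The 4 adipocyte markers had a median of 0.50 in Conv + LM, and of 0.21 without Conv + LM mouse 15 and 0.33 without Conv + PBS mouse 1, and of −0.15 in Conv + OM(HFD), which turned to 0.14 without mouse 25. For 7 blood cell markers the medians were 0.23 in Conv + OM(HFD), and 0.028 without mouse 25, and 0.22 in Conv + LM, and 0.36 without Conv + PBS mouse 1. The 6 bile duct markers had −0.032 in Conv + OM(HFD), which turned to 0.042 without mouse 25, and 0.093 in Conv + LM, and 0.051 without Conv + PBS mouse 1. The 3 clock genes of the Arntl phase had 0.29 and 0.12, and 0.12 and −0.089 without Conv + PBS mouse 1, 0.49 with obese microbiota without mouse 25 and 0.021 with lean without Conv + LM mouse 15. The 8 clock genes of the opposite phase had −0.10 and 0.015, −0.038 and 0.074 without Conv + PBS mouse 1, −0.18 with obese microbiota without mouse 25 and 0.051 with lean without Conv + LM mouse 15. These values without a mouse were added after the data were seen.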
